A study of Rattus norvegicus with 24 samples.

Results

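The paraventricular nucleus of the hypothalamus (PVN) was compared between rats that received current through acupuncture needles and rats that received the needles alone. The members are the 6 PVN libraries whose labels name hepatectomy with electroacupuncture (EA, 3 libraries) or sham electroacupuncture (SEA, 3 libraries), out of 24 mRNA libraries in the series. All of the rats were young male Sprague-Dawley rats, an outbred strain, and both groups were accustomed to the restraint used during needling. Both groups had part of the left liver lobe removed under isoflurane, and both had needles at the Zusanli and Sanyinjiao points of the hind limb, a day before the operation and again right after it. Current was passed in EA and not in SEA, so the current is what the labels separate. Tissue was taken a day after the last needling. The 3 PVN libraries of rats with hepatectomy and no needles (HT) and the 3 of unoperated rats (NC) are given as levels beside the comparison, and the same comparison in the central amygdala (its central nucleus, CEA), with 6 libraries, is given where it bears on the PVN. The labels give the tissue of every library as brain and the nucleus in its title. The labels give no rat for a library, so p-values measure the spread between libraries.

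The PVN holds the neurosecretory neurons that make corticotropin-releasing hormone, vasopressin, oxytocin and thyrotropin-releasing hormone, and it starts the hormonal response to surgery. Interferons are cytokines that act through receptors on neurons, glia and vessels. They lead transcription factors such as IRF9 to the interferon-stimulated response element of target genes, and the products of these genes include antiviral enzymes, brakes on the same pathway such as USP18, and the immunoproteasome and peptide transporters that load class I histocompatibility molecules. Fos, Junb and Npas4 are immediate early genes, which are transcribed within minutes of neuronal activity.

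The 6 libraries held 14796811 to 18226679 counts, a ratio of 1.23. A count of 0 allows up to 3 counts, which is 0.165 to 0.203 CPM, a count relative to the size of its library, and this floor covers counting error only. Levels are given as CPM after TMM scaling. They are not divided by gene length, so they compare libraries and not genes. Mitochondrial genes took 7.07% to 7.996% of the counts. The correlation of log2 CPM profiles was 0.9889 to 0.9906 within EA, 0.9882 to 0.9913 within SEA and 0.9866 to 0.9911 between the groups, so the libraries of a group were no closer to each other than to the other group. On the first principal component, with 28.1% of the variance, SEA 3 lay at -8.88, on the side of EA 1 at -17.0 and EA 3 at -10.7, while EA 2 lay at 1.58 and SEA 1 and SEA 2 at 14.1 and 20.9. EA 1 held the highest value of the 6 libraries for 22.7% of the genes tested and the lowest for 21.0%. The markers of the nucleus were present in every library. Avp, vasopressin, read 272 to 357 CPM in EA and 291 to 394 CPM in SEA. Oxt, oxytocin, read 502 to 673 CPM and 495 to 689 CPM.

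With the edgeR quasi-likelihood test, 0 of 16606 genes had an adjusted p under 0.05, which is 0.00% of those tested, and the smallest adjusted p was 0.882. An unadjusted p under 0.05 was found for 865 genes, or 5.21%, where 830.3 would be reached if p-values were spread evenly. Of these, 366 were higher in EA (2.20% of the genes tested) and 499 were lower (3.0%). The values of the 2 groups did not overlap for 1701 genes, or 10.2%, with 879 higher in EA (5.29%) and 822 lower (4.95%). DESeq2 gave 24 genes at an adjusted p under 0.05, of which 6 were higher and 18 lower. They included Usp18, Irf7, Mx2, Cryab, Htra1, Mal, Ndrg2, Enpp2, Abl1, Fam50a, Smarcb1, Zmiz2 and Rasl10b, which are described below. Since edgeR called 0 genes, the p-values that follow are unadjusted edgeR values, and no gene is said to have changed. Over all genes tested the median log2 fold change of EA over SEA was -0.00096.

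**Figure D1:**
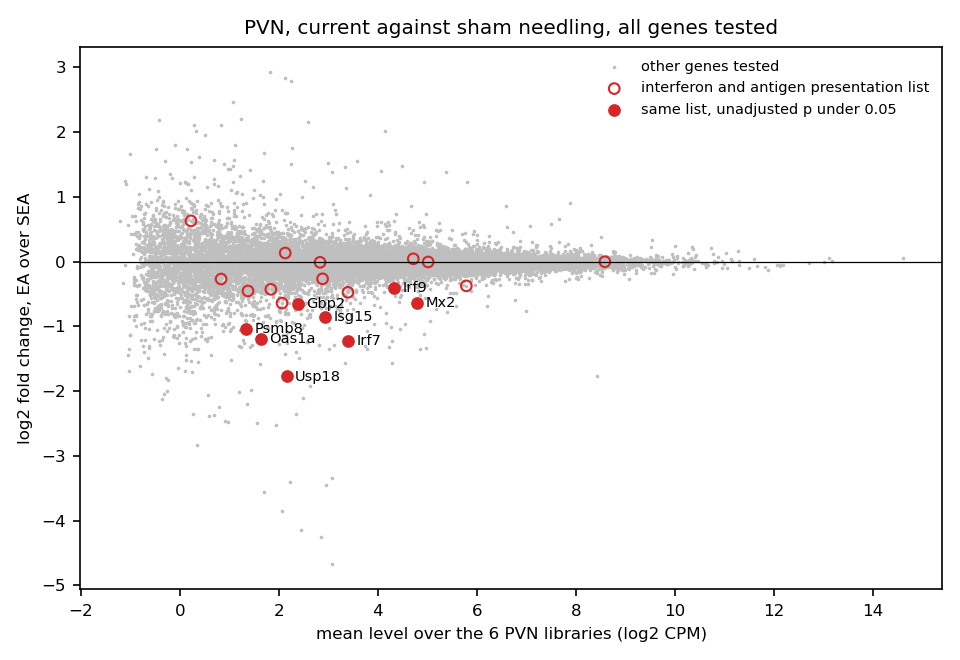
Log2 fold change of EA over SEA in the PVN against the mean level over the 6 libraries in log2 CPM, 1 point per gene tested. Red circles mark the 21 tested members of the interferon and antigen presentation list, filled where the unadjusted p is under 0.05, and all 8 filled circles lie below 0.

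The list that stood lowest held genes of the interferon response and of antigen presentation. Of its 23 genes, 22 were in the table and 21 passed the filter on low counts. Of these 21, 18 were lower in EA than in SEA. Unadjusted p was under 0.05 for 8 genes, all lower in EA, against a background of 3.0%, and for 0 higher. The groups did not overlap for 7 genes, all lower in EA, against 4.95%. The median log2 fold change of the list was -0.43. The 8 genes were Usp18, Mx2, Irf7, Irf9, Psmb8, Isg15, Gbp2 and Oas1a.

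The response element to which IRF9 binds was searched as GAAA, any 2 bases and GAAA again on both strands of the 300 bases around each start of transcription in RefSeq on GRCr8, from 250 bases before the start to 50 bases after it. It was found in 1312 of 33469 promoters, or 3.92%. Of the 23 listed genes, 16 had a promoter in the table, and 10 of these 16 held the letters. Of the 8 genes at an unadjusted p under 0.05, 5 had a promoter there, and 4 of the 5 held the letters. These 4 are printed 5′ to 3′ along the gene, because they are the members for which both an unadjusted p under 0.05 and a match are at hand. Capitals mark the match, which reads TTTC, 2 bases and TTTC where it lies on the other strand. In Oas1a 2 matches overlap.
Irf7 (chr1:205799974-205800273, minus strand): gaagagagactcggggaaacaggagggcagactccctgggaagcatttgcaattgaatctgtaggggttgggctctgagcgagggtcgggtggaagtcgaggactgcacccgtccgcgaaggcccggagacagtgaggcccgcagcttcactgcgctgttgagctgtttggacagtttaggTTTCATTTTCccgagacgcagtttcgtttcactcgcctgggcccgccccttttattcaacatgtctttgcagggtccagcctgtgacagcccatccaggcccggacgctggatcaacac
Oas1a (chr12:41330216-41330515, plus strand): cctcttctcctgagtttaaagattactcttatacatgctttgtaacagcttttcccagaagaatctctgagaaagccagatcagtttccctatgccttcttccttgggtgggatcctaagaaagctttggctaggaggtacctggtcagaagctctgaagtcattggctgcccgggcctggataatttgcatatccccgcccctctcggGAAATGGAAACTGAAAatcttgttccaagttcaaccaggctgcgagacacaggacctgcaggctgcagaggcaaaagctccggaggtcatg
Gbp2 (chr2:234005477-234005776, plus strand): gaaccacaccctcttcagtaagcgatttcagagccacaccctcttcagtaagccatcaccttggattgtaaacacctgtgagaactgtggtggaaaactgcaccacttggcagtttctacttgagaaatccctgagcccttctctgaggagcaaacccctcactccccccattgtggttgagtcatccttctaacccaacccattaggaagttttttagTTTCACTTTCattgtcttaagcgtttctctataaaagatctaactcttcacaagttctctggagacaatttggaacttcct
Psmb8 (chr20:4656982-4657281, minus strand): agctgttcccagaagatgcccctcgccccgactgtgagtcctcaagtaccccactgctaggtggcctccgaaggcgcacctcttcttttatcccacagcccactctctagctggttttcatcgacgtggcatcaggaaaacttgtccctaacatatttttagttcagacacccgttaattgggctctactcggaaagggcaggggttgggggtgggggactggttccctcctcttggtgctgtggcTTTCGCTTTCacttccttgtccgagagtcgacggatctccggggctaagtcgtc
The match began 69 bases before the start in Irf7, 41 in Oas1a, 31 in Gbp2 and 4 in Psmb8. Irf9 held none in this window. A match describes the sequence and was not tested for binding.

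Usp18 (ENSRNOG00000037198 on chromosome 4, 153805993 to 153834430 in the deposited table) encodes the protease that removes the ubiquitin-like ISG15 from proteins and blocks signalling from the type I interferon receptor. Its level was 1.41, 2.75 and 1.84 CPM in EA 1 to 3 and 6.22, 10.7 and 3.84 CPM in SEA 1 to 3. Every EA library lay below every SEA library, and SEA 2 was the highest of the 6. The means were 2.0 ± 0.682 and 6.91 ± 3.47 CPM (SD, n = 3), and the fitted level was 3.42-fold lower in EA. The log2 fold change was -1.77 with a standard error (SE) of 0.39 and an unadjusted p of 0.00124. In HT the level was 2.69, 2.49 and 1.32 CPM and in NC 3.77, 4.63 and 2.95 CPM, so EA lay near HT, with EA 2 just above the highest HT library.

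Irf7 (ENSRNOG00000017414 on chromosome 1, 214248837 to 214252456) encodes the transcription factor that amplifies type I interferon production. It read 6.801, 7.203 and 5.06 CPM in EA and 10.5, 23.9 and 10.01 CPM in SEA. The groups did not overlap, and SEA 2 held more than 2 times the level of either of the other SEA libraries. The log2 fold change was -1.22 (SE 0.33, unadjusted p = 0.00443), a mean 2.33-fold lower in EA. HT read 6.38, 5.66 and 4.58 CPM and NC 8.798, 11.6 and 5.91 CPM.

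Mx2 (ENSRNOG00000001963 on chromosome 11, 38035450 to 38059950), a GTPase of the antiviral Mx family, read 23.3, 23.3 and 18.8 CPM in EA and 30.9, 41.6 and 28.9 CPM in SEA. All SEA libraries were above all EA libraries. Its log2 fold change was -0.64 (SE 0.15, unadjusted p = 0.00178). Irf9 (ENSRNOG00000019478 on chromosome 15, 34282936 to 34288138), a DNA-binding transcription factor of the interferon response, read 16.2, 18.7 and 16.9 CPM in EA and 23.8, 25.2 and 19.9 CPM in SEA. The groups did not overlap, and the log2 fold change was -0.41 (SE 0.11, unadjusted p = 0.00521). For Irf9 the SEA 1 library was nearly as high as SEA 2.

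Isg15 (ENSRNOG00000021802 on chromosome 5, 173624310 to 173626248) encodes the ubiquitin-like protein that USP18 removes. It read 5.12, 6.38 and 4.84 CPM in EA and 7.605, 15.2 and 6.86 CPM in SEA, with no overlap and a log2 fold change of -0.85 (SE 0.29, unadjusted p = 0.0163). SEA 1 and SEA 3 lay close above the EA libraries and SEA 2 far above. Psmb8 (ENSRNOG00000000456 on chromosome 20, 3990613 to 3993769), a catalytic subunit of the immunoproteasome, was present at low levels of 0.808, 2.31 and 1.78 CPM in EA and 2.77, 3.74 and 3.71 CPM in SEA. The groups did not overlap, and here SEA 2 and SEA 3 were alike. Its log2 fold change was -1.04 (SE 0.35, unadjusted p = 0.0144).

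Gbp2 (ENSRNOG00000031743 on chromosome 2, 248276709 to 248293784), a guanylate-binding protein of the response to interferon gamma, read 3.03, 4.62 and 4.56 CPM in EA and 6.03, 8.37 and 4.85 CPM in SEA. The groups did not overlap, though SEA 3 lay just above EA 2 (log2 fold change -0.65, SE 0.25, unadjusted p = 0.0280). Oas1a (ENSRNOG00000001369 on chromosome 12, 41200718 to 41211909), an oligoadenylate synthetase that senses double-stranded RNA, read 2.02, 2.47 and 1.17 CPM in EA and 2.83, 7.69 and 2.46 CPM in SEA. SEA 3 lay below EA 2, so the groups touched, and SEA 2 stood apart (log2 fold change -1.19, SE 0.46, unadjusted p = 0.0293).

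The other 13 tested members did not reach an unadjusted p of 0.05. Among them were the antiviral genes Ifit2 (-0.47), Ifit3 (-0.64), Ifi27 (-0.37) and Mx1 (-0.45), the immunoproteasome subunit Psmb9 (-0.43) and the peptide transporter Tap1 (-0.26), with their log2 fold changes in brackets. Stat2, Irf1 and B2m, the light chain of class I molecules, had log2 fold changes of -0.01 or closer to 0. The members that were positive were Tap2 (0.63), Cd74 (0.13) and Tapbp (0.04). B2m, at 368 to 400.0 CPM in EA and 373 to 405 CPM in SEA, overlapped between the groups.

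**Figure D2:**
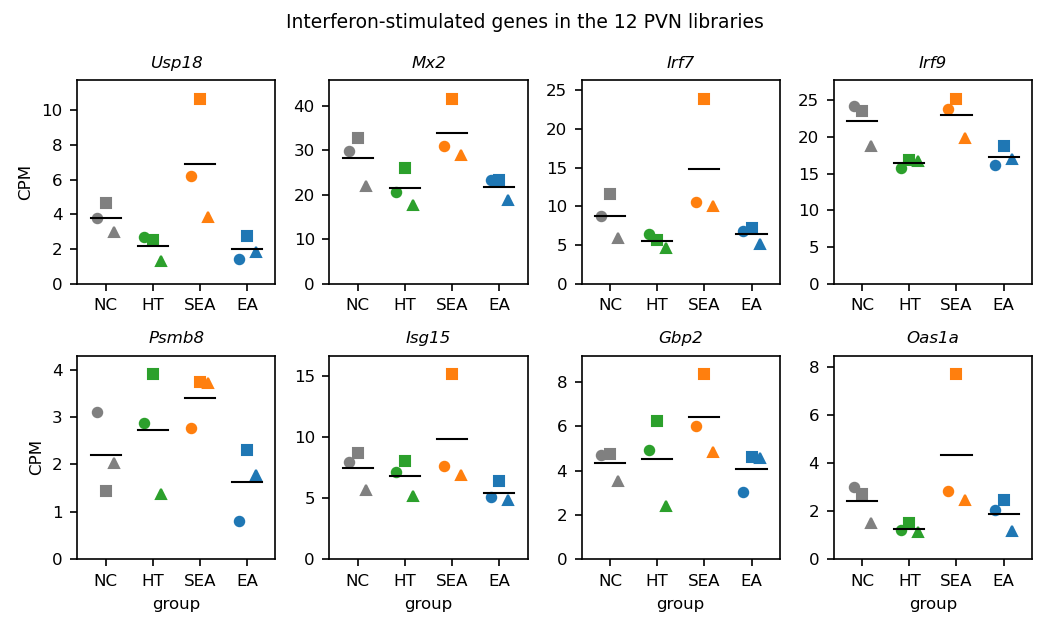
CPM of the 8 interferon-stimulated genes with an unadjusted p under 0.05 in the 12 PVN libraries, by group. Circles, squares and triangles are replicates 1, 2 and 3 and lines are group means of 3 libraries. The square of SEA 2 is the highest SEA value in every panel.

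The SEA 2 library stood apart in these genes. The summed level of the list was 614, 598 and 559.6 CPM in EA and 608, 762 and 592 CPM in SEA, so SEA 1 and SEA 3 lay among the EA libraries by this sum and SEA 2 above them. It was the highest of the 6 libraries for 17 of the 21 members, where it was the highest for 18.6% of all genes tested. It was also the highest for 9 of 12 thalamus markers, with a sum of 863 CPM against 599.8 to 754 CPM in the other 5, and for 9 of 13 genes of the mitochondrial genome, and the part of neighbouring tissue in the interferon values was not tested. Without SEA 2, 5 of the 21 members had an unadjusted p under 0.05, all lower in EA, and the median log2 fold change was -0.13. Usp18 was then at -1.32 (unadjusted p = 0.00404), Irf7 at -0.69 (0.00510) and Mx2 at -0.46 (0.00406). Isg15 was at -0.41 with an unadjusted p of 0.0608, Oas1a at -0.49 with 0.199, and Gbp2 at -0.41 with 0.129. The difference was therefore smaller without this library, and its direction was the same for these 6 genes. Ifit3 and Ifi27 turned to 0.27 and 0.15.

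The levels of the other PVN groups place the 2 needled groups. The SEA mean was above the HT mean for 19 of the 21 members (49.3% of all genes tested), and the EA mean was above the HT mean for 14 (50.5% of all genes). Against unoperated rats, the SEA mean was above the NC mean for 13 of 21 (47.9% of all genes) and the EA mean for 5 of 21 (49.1% of all genes). These orders are a description, because SEA and EA are each set against the same HT and NC libraries. Microglia respond to interferons, and their markers did not part the groups: of 12 tested markers 1 was higher in EA at an unadjusted p under 0.05 and 0 were lower, and the summed level was 418 to 458 CPM in EA and 383 to 488 CPM in SEA. The highest sum was in SEA 2, the part of microglia in the interferon values was not tested, and fewer cells of a type and less RNA per cell cannot be told apart in bulk tissue. None of the microglia markers was at 0.

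Histocompatibility genes themselves showed a mixed picture. Of 20 tested RT1 genes, the rat class I and class II loci, 1 was higher (background 2.20%) and 3 were lower (background 3.0%) at an unadjusted p under 0.05, with a median log2 fold change of -0.15. RT1-T24-3 read 2.42, 3.57 and 2.62 CPM in EA and 5.405, 7.14 and 3.71 CPM in SEA, with no overlap (-0.91, unadjusted p = 0.00847). RT1-Bb, a class II beta chain, read 1.21, 0.7697 and 1.34 CPM in EA and 0.126, 0.544 and 0.315 CPM in SEA (1.74, unadjusted p = 0.00697), values that rest on few counts. RT1 loci are near-identical copies that differ between outbred rats, and how reads that map to several copies were counted is not given in the sources used here.

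Some of these loci were present or absent as a whole. LOC103690108 (ENSRNOG00000047706 on chromosome 20, 3791407 to 3794027), annotated as a class I histocompatibility antigen, had 561, 615 and 650 counts in EA and 0, 1 and 1146 in SEA. It had 587, 639 and 1225 counts in HT and 0, 3 and 0 in NC. LOC100364500, annotated as an RT1 class I locus and also on chromosome 20, followed it with 87, 98 and 125 counts in EA and 1, 2 and 227 in SEA. Both were thus read in all EA and all HT libraries, in SEA 3 and in no other SEA or NC library beyond 3 counts. In the CEA, LOC103690108 had 0, 4 and 585 counts in SEA 1 to 3, the same order of absence and presence as in the PVN.

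Genes with at most 3 counts in one of the 6 libraries and at least 100 in another numbered 14 of the 35032 genes in the table. With all 6 libraries they tell the libraries apart rather than the groups. Without SEA 3, LOC103690108, LOC100364500 and AABR07066020.1 had an adjusted p under 0.05 in edgeR. Fam111a, a protease gene, had 1, 2 and 302 counts in EA and 2, 2 and 347 in SEA, so it was read in 1 library of each group. Hba-a3, an alpha globin, had 16, 2 and 109 and 72, 82 and 0 counts. Fuom had 17, 16 and 193 and 9, 85 and 3, Polr2i 3, 200 and 3 and 5, 8 and 8, and Rpl35al1 1, 0 and 1 and 0, 3 and 142. The noncoding AABR07000382.1 and AABR07066020.1 had 1, 75 and 210 and 3, 4 and 1 counts in EA, and 83, 151 and 68 and 113, 36 and 3 in SEA. The 2 groups overlapped in all of these genes. Transcripts without a symbol are left out of these examples.

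The other 3 such genes are markers of tissue outside the nucleus. Gabra6 and Fat2, which granule cells of the cerebellum express, had 101, 0 and 0 and 115, 4 and 14 counts in EA 1 to 3 against 0, 1 and 0 and 1, 3 and 1 in SEA. They were read in EA 1. Of 10 granule cell genes chosen after these counts were seen, 6 were tested and 0 reached an unadjusted p of 0.05, with sums of 493 to 549 CPM in EA and 471 to 544 CPM in SEA. Cga, the alpha subunit of pituitary glycoprotein hormones, had 20, 119 and 3 counts in EA and 37, 14 and 24 in SEA, highest in EA 2. A list of 10 pituitary genes, also chosen afterwards, summed to 28.01 to 31.3 CPM in EA and 21.5 to 28.02 CPM in SEA. The part of such tissue in the values of EA 1 and EA 2 was not tested.

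Among the other genes without overlap, those lower in EA were led by Tecta (ENSRNOG00000031126 on chromosome 8, 46603728 to 46675544), which encodes the extracellular protein alpha-tectorin. Tecta read 7.27, 7.53 and 7.18 CPM in EA and 10.9, 12.2 and 12.1 CPM in SEA. The spread within each group was small and the gap between them wide, with means of 7.33 ± 0.183 and 11.7 ± 0.728 CPM (SD, n = 3). The log2 fold change was -0.68 (SE 0.12, unadjusted p = 0.000235). S100a13, a calcium-binding protein of the S100 family, read 33.5, 38.8 and 34.4 CPM in EA and 45.6, 49.5 and 45.8 CPM in SEA (-0.40, unadjusted p = 0.000552). Enpp2, the enzyme autotaxin that makes lysophosphatidic acid, read 95.5, 103 and 107 CPM in EA and 119, 140.3 and 131 CPM in SEA (-0.35, unadjusted p = 0.000907). For all 3 genes each EA library lay below each SEA library. NC values of Tecta and S100a13 were 8.996, 12.6 and 11.9 CPM and 68.9, 45.8 and 56.2 CPM, above all EA values. Enpp2 read 89.5, 122 and 123 CPM in NC, with NC 1 below all EA values. In HT, S100a13 read 37.6, 48.7 and 35.5 CPM and Enpp2 109, 126 and 89.7 CPM, and both overlapped EA. Tecta read 7.63, 10.5 and 8.35 CPM in HT, above all EA values.

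Other genes of this group had larger fold changes, several with a wide spread within SEA. Fam50a read 0.539, 0.5498 and 0.501 CPM in EA and 1.38, 13.9 and 8.06 CPM in SEA. Abl1, a tyrosine kinase, read 1.01, 2.14 and 1.73 and 3.77, 13.4 and 8.25 CPM. Echs1, a mitochondrial enoyl-CoA hydratase, read 0.269, 0.605 and 0.612 and 12.1, 5.03 and 0.944 CPM. In each of these 3 the SEA libraries differed among themselves by more than 3 times, and these rows also varied within other groups, since Echs1 read 0.331, 11.7 and 1.97 CPM in NC. Ndufa1, a subunit of respiratory complex I, read 0.673, 0.495 and 0.556 CPM in EA, 6.599, 23.5 and 0.693 CPM in SEA and 1.44, 27.2 and 1.82 CPM in HT. Zmiz2 read 17.3, 10.8 and 8.85 and 24.8, 23.8 and 22.1 CPM (-0.94, unadjusted p = 0.00128), and Rasl10b 3.03, 4.01 and 3.51 and 9.36, 10.7 and 4.85 CPM (-1.24, unadjusted p = 0.00175).

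Among genes higher in EA, Wfdc1 (ENSRNOG00000015904 on chromosome 19, 52313795 to 52332697), a secreted protein with a whey acidic protein domain, had the smallest p of those the rule named. It read 33.5, 27.2 and 26.9 CPM in EA and 20.8, 19.3 and 21.1 CPM in SEA. Each EA library was above each SEA library, with a log2 fold change of 0.51 (SE 0.10, unadjusted p = 0.000736), and HT read 19.2 to 58.9 CPM and spanned both groups. Cryab (ENSRNOG00000010524 on chromosome 8, 55178289 to 55182545), the small heat shock protein alpha B crystallin of astrocytes and oligodendrocytes, read 44.8, 30.5 and 42.9 CPM in EA and 19.99, 23.7 and 26.9 CPM in SEA. The means were 39.4 ± 7.81 and 23.5 ± 3.48 CPM (SD, n = 3), 1.67-fold higher in EA, with no overlap (0.74, SE 0.16, unadjusted p = 0.00103). In HT it read 29.5, 27.7 and 78.8 CPM, and HT 3 lay above all EA libraries.

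Mal and Ndrg2, of myelin and of astrocytes, were higher in EA by smaller factors. Mal read 363, 411 and 449.9 CPM in EA and 294, 307 and 344 CPM in SEA (0.37, SE 0.088, unadjusted p = 0.00203). Ndrg2 read 1889.8, 1779 and 1787 CPM and 1524, 1552 and 1625 CPM (0.21, SE 0.050, unadjusted p = 0.00207). The groups did not overlap for either gene. The other oligodendrocyte markers did not follow Mal: of 12 tested, 9 were lower in EA and 1, Mal itself, had an unadjusted p under 0.05. The sums of the list were 12567 to 15169.6 CPM in EA and 12692 to 15252 CPM in SEA.

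Spg7, a protease of the inner mitochondrial membrane, read 89.9, 82.9 and 78.2 CPM in EA and 71.4, 65.4 and 65.8 CPM in SEA (0.31, unadjusted p = 0.00147). Cmc2, a small mitochondrial protein, read 13.9, 12.6 and 13.2 and 9.68, 9.93 and 9.76 CPM (0.43, unadjusted p = 0.00221). Zfp61, a zinc finger gene, read 37.2, 36.2 and 39.8 and 29.98, 31.6 and 29.2 CPM (0.32, unadjusted p = 0.00174). None of these 3 genes overlapped between the groups, and their log2 fold changes were 0.31 to 0.43. Mphosph6 was similar, at 0.34. Smarcb1, a subunit of the SWI/SNF remodelling complex, read 5.86, 9.57 and 8.96 and 3.27, 4.83 and 2.27 CPM, and Wdr54 29.96, 11 and 12.5 and 7.23, 5.101 and 5.67 CPM. Both varied by more than 4 times within HT.

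**Figure D3:**
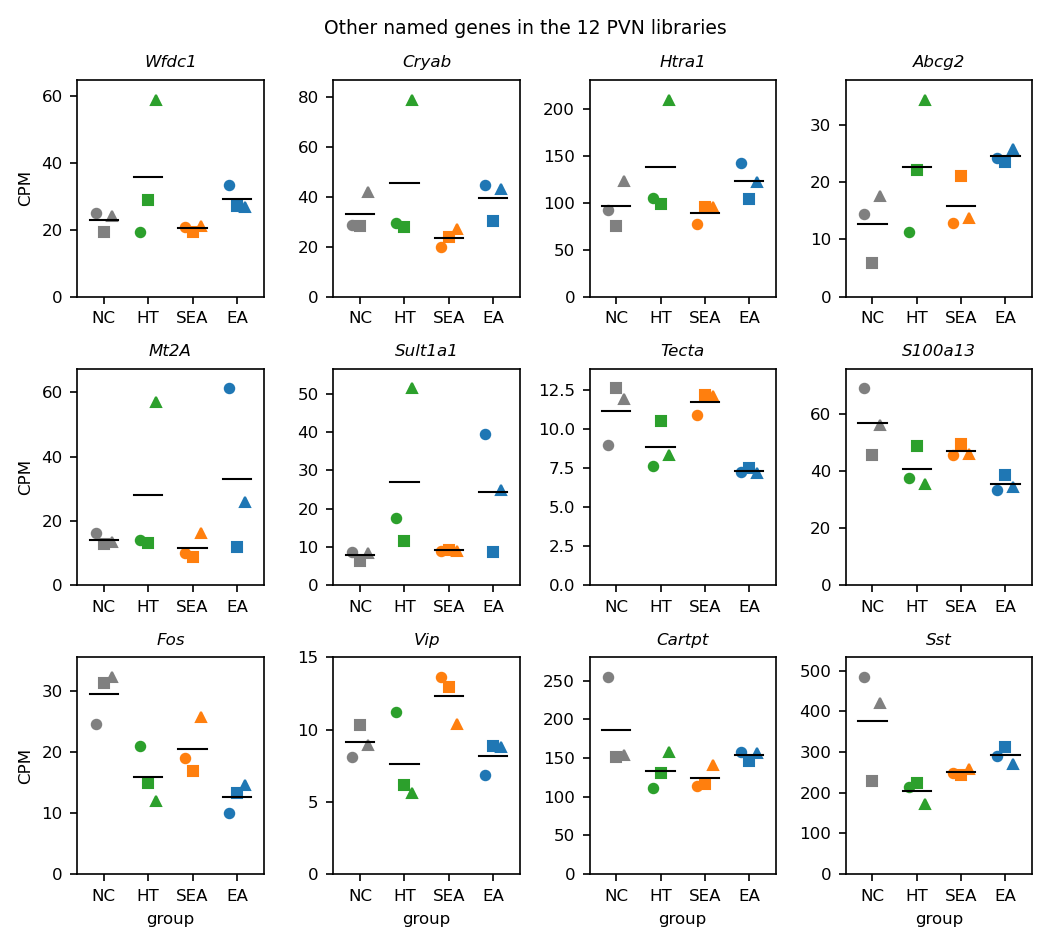
CPM of 12 other named genes in the 12 PVN libraries, by group, with replicates 1, 2 and 3 as circles, squares and triangles and group means of 3 libraries as lines. EA and SEA do not overlap for Wfdc1, Cryab, Htra1, Abcg2, Tecta, S100a13, Fos, Vip, Cartpt and Sst, while the EA 2 library lies among the SEA libraries for Mt2A and just below them for Sult1a1.

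Peptides of the nucleus differed little. Of 30 tested neuroendocrine peptide genes and their processing enzymes, 2 were higher (background 2.20%) and 1 was lower (background 3.0%) at an unadjusted p under 0.05, and the median log2 fold change was 0.07. Crh, the peptide that drives the pituitary stress axis, read 10.7, 9.57 and 9.63 CPM in EA and 9.05, 8.64 and 7.996 CPM in SEA. Each EA library lay above each SEA library, by a small margin (0.22, SE 0.12, unadjusted p = 0.106). Levels in HT were 7.75, 7.81 and 4.52 CPM and in NC 12.9, 8.499 and 13.04 CPM. Avp, at 357, 306 and 272 CPM in EA and 295, 394 and 291 CPM in SEA, overlapped (-0.07, SE 0.13, unadjusted p = 0.606). So did Oxt, at 673, 627 and 502 and 541, 689 and 495 CPM (0.06, SE 0.13, unadjusted p = 0.649), and Trh, thyrotropin-releasing hormone, at 107, 98.4 and 107 and 93.5, 99.4 and 102 CPM (0.08, SE 0.060, unadjusted p = 0.196).

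The peptides below an unadjusted p of 0.05 were Sst, Cartpt and Vip. Sst, somatostatin, which holds back growth hormone and thyrotropin, read 291, 313 and 271 CPM in EA and 248, 244 and 259 CPM in SEA (0.22, SE 0.062, unadjusted p = 0.00630). Cartpt, a peptide of feeding and stress circuits, read 157, 146 and 157 and 113, 117 and 142 CPM (0.31, SE 0.084, unadjusted p = 0.00506). Vip, vasoactive intestinal peptide, typical of the suprachiasmatic nucleus, read 6.87, 8.85 and 8.79 and 13.6, 12.9 and 10.4 CPM and was lower in EA (-0.59, SE 0.15, unadjusted p = 0.00382). None of the 3 overlapped, and HT values of Vip, 11.2, 6.19 and 5.59 CPM, spanned both groups.

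Receptors and binding proteins of the stress axis had 1 of 16 tested genes at an unadjusted p under 0.05. It was Nr3c2, the mineralocorticoid receptor, at 7.95, 8.74 and 8.904 CPM in EA and 10.7, 10.3 and 10.3 CPM in SEA, lower in EA with no overlap (-0.29, SE 0.12, unadjusted p = 0.0332). The unadjusted p was 0.109 in DESeq2 and over 0.05 in 5 of the 6 fits that left out 1 library, up to 0.0936. Ncoa2, a coactivator of steroid receptors, read 48.7, 55.8 and 54.5 and 56.2, 58.4 and 57.99 CPM (-0.12, unadjusted p = 0.119).

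Genes that glucocorticoids induce set single libraries apart. Of 21 tested genes, 2 were higher in EA at an unadjusted p under 0.05 (background 2.20%) and 0 were lower (background 3.0%), and the median log2 fold change was 0.03. Mt2A, a metallothionein, read 61.2, 11.9 and 25.9 CPM in EA and 10.2, 8.84 and 16.1 CPM in SEA (1.48, SE 0.50, unadjusted p = 0.0159). Sult1a1, a sulfotransferase, read 39.3, 8.58 and 24.99 and 8.99, 9.32 and 9.07 CPM (1.40, SE 0.43, unadjusted p = 0.00947). For both genes EA 1 and EA 3 stood above SEA, and EA 2 lay among the SEA libraries for Mt2A and just below them for Sult1a1. HT read 13.9, 13.1 and 57.1 CPM for Mt2A and 17.6, 11.6 and 51.3 CPM for Sult1a1, high in HT 3. Without EA 1, Mt2A was at 0.69 with an unadjusted p of 0.0792, and Sult1a1 at 0.88 with 0.0431. Without EA 2, Sult1a1 was at 1.81 with an adjusted p of 0.0386. Without SEA 1 or SEA 2, the unadjusted p of Mt2A was 0.0534 or 0.0533. The summed level of the list was 899.5, 564 and 871 CPM in EA and 546, 633 and 1021 CPM in SEA. The highest of these sums was in SEA 3 and the next in EA 1 and EA 3, so the list did not part the groups. Fkbp5, the cochaperone of the glucocorticoid receptor, read 71.1, 37.2 and 40.96 CPM in EA and 34.1, 33.7 and 48.3 CPM in SEA (0.35, unadjusted p = 0.168).

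Immediate early genes gave 3 of 25 tested genes at an unadjusted p under 0.05, all lower in EA against a background of 3.0%. Fos (ENSRNOG00000008015 on chromosome 6, 109300433 to 109303299), the usual marker of recent neuronal activity, read 10.03, 13.3 and 14.5 CPM in EA and 18.98, 16.9 and 25.7 CPM in SEA. Each EA library lay below each SEA library, with means of 12.6 ± 2.31 and 20.5 ± 4.58 CPM (SD, n = 3) and a log2 fold change of -0.70 (SE 0.18, unadjusted p = 0.00359). HT read 21.01, 14.9 and 12.05 CPM, across both groups, and NC 24.7, 31.3 and 32.3 CPM, where 2 of 3 libraries lay above all 6. Junb, a partner of FOS, read 26.1, 24.8 and 32.3 CPM in EA and 39.7, 37.5 and 29.6 CPM in SEA (-0.36, unadjusted p = 0.0240), with SEA 3 among the EA values. Npas4, which neurons induce on calcium entry, read 1.08, 0.7697 and 0.223 and 1.82, 2.45 and 0.944 CPM (-1.35, unadjusted p = 0.0309). Single libraries set the list apart more than the groups did. EA 3 was the highest of the 6 libraries for 15 of 25 genes (15.4% of all genes tested) and EA 1 the lowest for 15 of 25 (21.0%). The sums of the list were 327, 373 and 570.3 CPM in EA and 433, 389.7 and 446 CPM in SEA. Of its 25 genes 14 were positive, and the median log2 fold change was 0.02. Atf3 (1.96, unadjusted p = 0.0565) and Nr4a1 (0.74, unadjusted p = 0.175) were highest in EA 3, at 0.135, 1.54 and 5.06 CPM and 10.4, 15.2 and 51.5 CPM in EA. The number at an unadjusted p under 0.05 was 8 with no filter on low counts, 6 lower and 2 higher, and 6 without EA 1, 2 lower and 4 higher. Without EA 2 it was 2, 1 in each direction, and without SEA 1 it was 1. Junb and Npas4 had an unadjusted p of 0.0989 and 0.0718 without SEA 1 and of 0.0695 and 0.121 without SEA 2, while Fos stayed under 0.05 without any 1 library.

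Genes of neurotransmission gave few low p-values, and many small differences were in 1 direction. Of 30 tested glutamate genes, 25 were negative, with a median log2 fold change of -0.04, and 1 had an unadjusted p under 0.05. It was Camk2a, the kinase of the postsynaptic density, at 132, 152 and 126 CPM in EA and 149, 169.8 and 155 CPM in SEA (-0.21, unadjusted p = 0.0286). Of 22 genes of GABA and glycine transmission, 19 were negative, with a median of -0.06. The receptor subunit Gabrg1 read 92.5, 90.7 and 97.7 CPM in EA and 106, 101 and 109.9 CPM in SEA, with no overlap (-0.17, SE 0.058, unadjusted p = 0.0148). Across all genes tested 49.7% were positive. In the glutamate list the summed level was 4601, 4993 and 4727 CPM in EA and 4904, 5214 and 4735 CPM in SEA, ranges that overlap. SEA 2 was the highest of the 6 libraries for 14 of the 30 glutamate genes (18.6% of all genes tested). EA 1 was the lowest for 13 of them (21.0% of all genes). Among the 22 GABA and glycine genes SEA 3 was the highest for 11 (15.9% of all genes) and EA 1 the lowest for 7. Of 8 endocannabinoid genes 0 reached an unadjusted p of 0.05.

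Opioid peptides and receptors, which are much studied in acupuncture, gave 0 of 11 genes at an unadjusted p under 0.05. Oprm1, the mu receptor, read 8.48, 16.5 and 14.5 CPM in EA and 16.3, 16.1 and 13.1 CPM in SEA, which overlapped (-0.20, SE 0.22, unadjusted p = 0.385). Pdyn, prodynorphin, read 120.4, 105 and 108 and 102, 104 and 103 CPM, each EA value above each SEA value by a small margin (0.11, SE 0.061, unadjusted p = 0.101). Pomc, the precursor of beta-endorphin, varied more, at 47.1, 52.8 and 34.6 and 51.5, 14.1 and 29.5 CPM (0.49, SE 0.36, unadjusted p = 0.205). Pomc was at 1.03 without SEA 1 (unadjusted p = 0.00756) and at 0.14 without SEA 2 (0.556). Of 27 monoamine genes 2 had an unadjusted p under 0.05, both lower in EA against a background of 3.0%, the adrenergic receptor Adrb1 at 2.83, 4.01 and 2.84 and 4.46, 5.24 and 4.53 CPM (-0.55, unadjusted p = 0.0258) and the dopamine receptor Drd1 at 4.65, 4.84 and 4.73 and 7.92, 4.897 and 6.86 CPM (-0.47, unadjusted p = 0.0403). Neither overlapped between the groups. Adrb1 had an unadjusted p of 0.0830 without SEA 2, and Drd1 of 0.171 without SEA 1 and 0.0901 without SEA 3, and in DESeq2 both were over 0.05, at 0.0533 and 0.0597. The receptors Drd2 and Htr1a overlapped, with log2 fold changes of -0.11 (SE 0.13) and -0.03 (SE 0.16). In the angiotensin system 0 of 9 tested genes had an unadjusted p under 0.05. Its receptor Agtr2 read 0.875, 0.8797 and 1.34 CPM in EA and 1.89, 1.36 and 0.881 CPM in SEA (-0.41, SE 0.37, unadjusted p = 0.292), which are low levels. Agtr2 was at -0.11 without SEA 1 and at -0.65 without EA 3.

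Among neuregulins, ERBB receptors and neurotrophins, 12 of 15 tested genes were negative and the gene with an unadjusted p under 0.05 was positive. This was Hbegf, a ligand of the EGF receptor, at 6.06, 3.57 and 6.73 CPM in EA and 3.65, 3.26 and 2.83 CPM in SEA (0.74, SE 0.26, unadjusted p = 0.0174). EA 2 lay below SEA 1, so the groups touched. Acute phase and cytokine genes gave 0 of 21 at an unadjusted p under 0.05. Their leading members were the complement gene C4b, at 2.22, 1.65 and 1.28 and 2.83, 4.49 and 1.7 CPM (-0.81, unadjusted p = 0.0568), and the lipocalin Lcn2, at 3.97, 0.935 and 2.003 and 1.26, 1.29 and 1.196 CPM (0.86, unadjusted p = 0.0986). C4b was at -0.41 without SEA 2 (unadjusted p = 0.289) and at -1.09 without SEA 3 (0.00914).

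Chaperone genes had mostly small positive values. Of 21 tested heat shock and chaperone genes 18 were positive, 3 had an unadjusted p under 0.05, all higher against a background of 2.20%, and 6 did not overlap, all higher against 5.29%. The median log2 fold change was 0.07. After Cryab these were Hsp90ab1, a main form of HSP90, at 1831, 1834 and 1772 CPM in EA and 1642, 1622 and 1744 CPM in SEA (0.12, SE 0.049, unadjusted p = 0.0411), and the small heat shock protein Hspb1 at 6.19, 5.28 and 6.96 and 5.15, 4.56 and 4.22 CPM (0.40, SE 0.18, unadjusted p = 0.0474). The summed level was 6105, 6296 and 6029.9 CPM in EA and 5944, 5742 and 5909.7 CPM in SEA. All 3 EA sums were above all 3 SEA sums, and the HT and NC sums, from 5246 to 6498 CPM, were wider than this gap. Without SEA 2, 1 of the list had an unadjusted p under 0.05, with Hsp90ab1 at 0.113 and Hspb1 at 0.0924, and 1 did with no filter and in the fit of all 12 PVN libraries. Unadjusted p was also over 0.05 for Hsp90ab1 without SEA 1, EA 1 or EA 2 and for Hspb1 without SEA 3, EA 1 or EA 3.

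Ribosomal protein genes were the next list described. Of 84 tested, 66 were positive, 12 were higher (background 2.20%) and 2 lower (background 3.0%) at an unadjusted p under 0.05, and the median log2 fold change was 0.06. Rpl34 read 200.1, 189.8 and 188 CPM in EA and 166, 159 and 177 CPM in SEA (0.20, SE 0.057, unadjusted p = 0.00571), a difference of this kind, and Rps18, lower in EA, read 7.41, 10.7 and 7.12 and 13.1, 11.5 and 14.7 CPM (-0.64, unadjusted p = 0.00533). Without EA 1 the number at an unadjusted p under 0.05 was 5, with 2 higher and 3 lower. It was 5 higher and 2 lower without SEA 1, 5 higher and 3 lower without SEA 2, 15 higher and 9 lower without SEA 3, and 0 higher and 3 lower in the fit of all 12 PVN libraries, so the higher values were not stable. The summed level was 15484, 13848 and 13482 CPM in EA and 13416, 13178 and 13536 CPM in SEA, highest in EA 1. Ribosomal protein genes have many processed copies, so their counts can be split between copies. Genes of oxidative phosphorylation gave 1 higher and 1 lower of 88. The first was Cox7a2l2, at 115, 124 and 114 and 101, 106 and 109 CPM, and the other Ndufa1. In the mitochondrial genome 1 of 13 genes was higher, Mt-co2 of complex IV, at 1113, 1200.3 and 1009 CPM in EA and 919, 857 and 1022 CPM in SEA (0.25, unadjusted p = 0.0134).

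Potassium channels, clock genes and hypothalamic transcription factors stayed near the background. Of 78 potassium channel genes 1 was higher and 3 were lower at an unadjusted p under 0.05, led by Kcnip2 (-1.17, unadjusted p = 0.0340) and Kcnh6 (0.30, unadjusted p = 0.0447). Kcnip2 read 0.808, 1.32 and 0.612 CPM in EA and 1.26, 1.43 and 3.53 CPM in SEA, and without SEA 3 it was at -0.54 (unadjusted p = 0.226). Kcnh6 was over 0.05 without any 1 of the 6 libraries. Of 20 clock genes 0 reached it. Bhlhe41 and Rorb, repressor and activator of the clock, did not overlap between the groups, at -0.14 (unadjusted p = 0.0780) and -0.20 (unadjusted p = 0.0879). Of 24 transcription factors 1 was lower, the homeobox gene Lhx6 of inhibitory neurons, at 3.97, 2.42 and 3.005 CPM in EA and 4.21, 5.51 and 4.53 CPM in SEA (-0.61, unadjusted p = 0.0266).

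**Figure D4:**
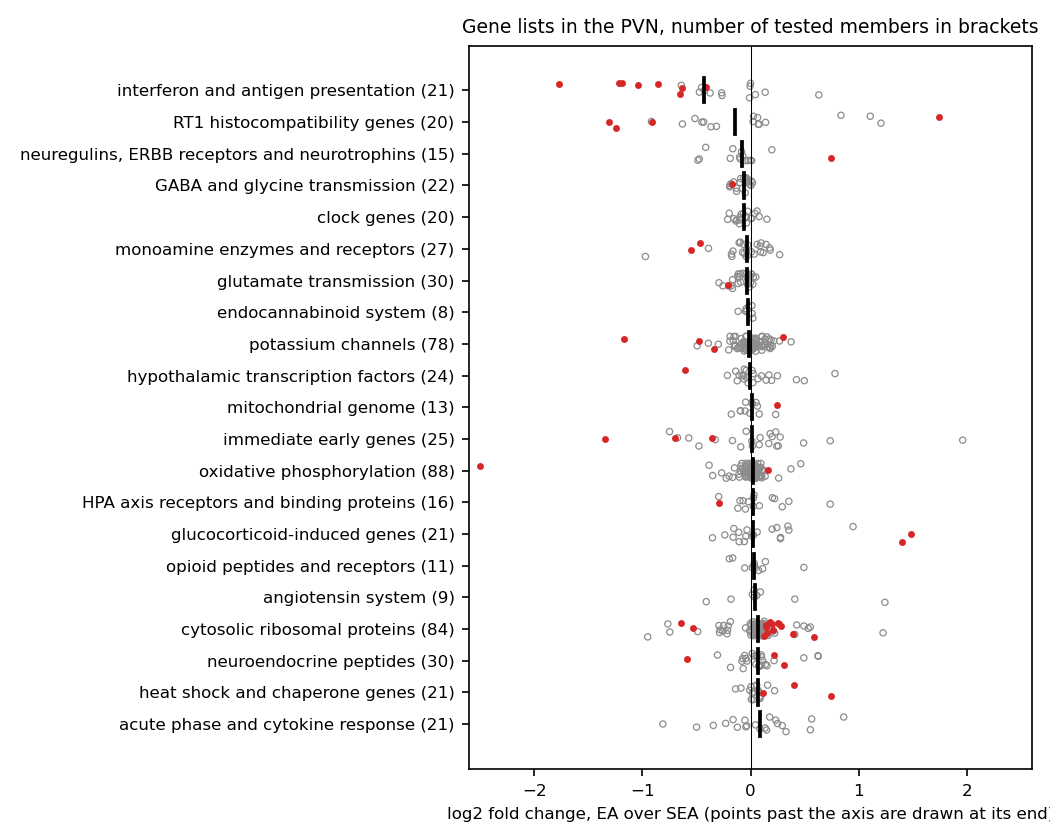
Log2 fold change of EA over SEA in the PVN for the tested members of 21 gene lists, 1 point per gene, red where the unadjusted p is under 0.05, with a black tick at the list's median. The interferon and antigen presentation list has the lowest median, -0.43, and the other medians lie between -0.15 and 0.09. The point of Ndufa1, at -4.14, is drawn at the end of the axis.

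Markers of cell types give the makeup of the pieces of tissue. Among 12 microglia markers the complement gene C1qb was higher in EA, at 51.4, 35.4 and 43.5 CPM against 26.5, 34.6 and 32.8 CPM in SEA (0.47, SE 0.14, unadjusted p = 0.00896), with no overlap. The receptor Cx3cr1 of the same cells read 18.8, 27.3 and 20.8 and 26.3, 33.3 and 24.2 CPM (-0.32, unadjusted p = 0.0734). The 2 markers thus pointed in opposite directions. Of 12 astrocyte markers 1 was higher, Aldoc at 1536, 1303 and 1386 and 1179, 1289 and 1228 CPM (0.19, unadjusted p = 0.0190), and 1 lower, the gap junction gene Gja1 at 469.5, 478 and 458 and 513, 513 and 569 CPM (-0.18, SE 0.056, unadjusted p = 0.00936). Of 10 vessel markers Tek, an endothelial receptor, was lower, at 26.3, 27.4 and 22.1 and 35.01, 32.4 and 28.6 CPM (-0.34, SE 0.11, unadjusted p = 0.0113). Of 6 tested blood genes Alas2 of red cell precursors was higher (0.52, unadjusted p = 0.0331) and Hbb lower (-0.74, unadjusted p = 0.0220).

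Tissue next to the nucleus was read in both groups. Markers of thalamus summed to 651 to 754 CPM in EA and 599.8 to 863 CPM in SEA, with 0 of 12 genes at an unadjusted p under 0.05 and 10 of 12 negative. SEA 2 was the highest of the 6 libraries for 9 of the 12 thalamus markers. Striatal markers summed to 444 to 537 CPM and 412 to 501 CPM, with Drd1 as the gene under 0.05. Markers of cortical and hippocampal excitatory neurons summed to 261 to 281 CPM and 248 to 265 CPM, of ependyma to 68.1 to 81.4 and 68.02 to 81.5 CPM, and of choroid plexus to 22.6 to 25.3 and 20.4 to 25 CPM, each with 0 genes under 0.05. Ttr, the main transcript of choroid plexus, did not pass 2.03 CPM. Fibroblast genes of the meninges summed to 79.5, 85.9 and 136 CPM in EA and 79.3 to 82.5 CPM in SEA, highest in EA 3, and 8 of 9 tested were positive with 0 under 0.05. Oligodendrocyte precursor markers gave 0 of 7.

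Of 79 named genes with an unadjusted p under 0.05, 45 stayed under it whichever 1 of the 6 libraries was left out. Many of the named genes were picked for small p in these same libraries, so this count is no independent check. In the fit of all 12 PVN libraries, which shares 1 estimate of the spread with HT and NC, 31 of these 45 were under 0.05 and 14 were over it, with unadjusted p from 0.0536 to 0.307. These 14 were Abcg2, Cartpt, Cryab, Eml1, Gja1, Htra1, Mal, Mphosph6, Prkrip1, Rasl10b, Rpl34, Sst, Tfcp2l1 and Wfdc1. The other 34 of the 79 were over 0.05 without at least 1 library, and they were Adrb1, Alas2, Aldoc, Bst2, Camk2a, Capg, Cox7a2l2, Cul7, Drd1, Gabrg1, Gbp2, Hbb, Hbegf, Heph, Hsp90ab1, Hspb1, Isg15, Junb, Kcnh6, Kcnip2, Lhx6, Lrg1, Mt-co2, Mt2A, Npas4, Nr3c2, Oas1a, Oasl, Parp9, Rsad2, Rtp4, Tek, Tnfrsf11b and Uba7. The counts of all lists are read against the background of 2.20% of genes higher and 3.0% lower.

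The same contrast in the CEA asks which of these differences were particular to the PVN. In the CEA 0 of 16322 genes had an adjusted p under 0.05 in edgeR and 5 in DESeq2, and 324 genes, or 1.99%, had an unadjusted p under 0.05, with 187 higher in EA (1.15%) and 137 lower (0.839%). The CEA EA 2 library stood apart, with 3.798% of its counts from mitochondrial genes against 10.1% to 14.4% in the other CEA libraries, and its part in these values was not tested beyond leaving it out. Without it 0 genes had an adjusted p under 0.05 and 437 an unadjusted p under 0.05, 5 of them in the interferon list, and the difference between regions gave 0 and 499. Values did not overlap for 1094 genes (6.70%), with 559 higher (3.42%) and 535 lower (3.28%). A test of the difference between the regions, the interaction of region and current over 12 libraries, gave 0 of 17204 genes at an adjusted p under 0.05 in edgeR, 2 in DESeq2, and 403 (2.34%) at an unadjusted p under 0.05, of which 153 were more positive in the PVN (0.889%) and 250 more negative (1.45%). In the edgeR fit no gene was therefore shown to differ in response between the regions. Of 829 genes with an unadjusted p under 0.05 in the PVN that were also tested in the CEA, 65.4% had the same sign there, against 56.1% of all 15946 genes tested in both. There were 84 genes at an unadjusted p under 0.05 in both regions, and 75 of them had the same sign, 32 higher and 43 lower in EA. These 75 are 9.05% of the PVN genes and 24.7% of the CEA genes at that level.

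In the CEA 7 of 21 tested members of the interferon list were lower in EA at an unadjusted p under 0.05 (background 0.839%) and 0 higher (background 1.15%), with a median log2 fold change of -0.47. Of the 21 members 6 were at that level with the same sign in both regions, against 0.470% of all genes tested in both. Of the 21 members, 17 were negative in both. Usp18 read 0.762, 1.203 and 2.11 CPM in CEA EA and 3.38, 9.32 and 2.49 CPM in CEA SEA (-1.88, SE 0.59, unadjusted p = 0.0134). Irf7 read 4.36, 3.103 and 5.79 and 9.699, 25.03 and 7.61 CPM (-1.67, SE 0.48, unadjusted p = 0.00874). SEA 2 was the highest CEA library for both genes. Without CEA SEA 2, 3 members of the list were at an unadjusted p under 0.05, and without CEA EA 1, 4. The interaction for Usp18 was 0.10 (SE 0.76, unadjusted p = 0.895), so a difference between the regions was not shown, and the interval is wide.

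Further interferon-stimulated genes lower in both regions were noticed only after their values were seen. Oas1k, which the rule named, read 3.77, 3.74 and 4.28 CPM in PVN EA and 4.97, 9.11 and 6.67 CPM in PVN SEA (-0.81, unadjusted p = 0.00621). Rtp4, a chaperone of receptors, read 2.36, 2.97 and 2.95 and 3.96, 10.4 and 3.904 CPM (-1.13, unadjusted p = 0.0149). Oasl2 read 7.27, 4.29 and 4.56 and 7.42, 16.3 and 8.88 CPM (-1.02, unadjusted p = 0.00937). Parp9, Rsad2, Bst2, Uba7, Oasl and Lgals3bp had log2 fold changes of -0.46, -0.54, -0.86, -0.60, -1.22 and -0.30 in the PVN, against -0.77, -0.94, -0.90, -0.84, -2.06 and -0.93 in the amygdala. Because they were picked for being low, they add no test to the list. Without PVN SEA 2 the PVN log2 fold changes were nearer 0, at -0.51 for Rtp4 (unadjusted p = 0.0582), -0.61 for Oasl2 (0.0397) and -0.56 for Oas1k (0.0280). Parp9, Rsad2, Bst2, Uba7 and Oasl were then at -0.25, -0.45, -0.49, -0.30 and -0.74, with unadjusted p from 0.104 to 0.230, and Lgals3bp was at -0.25 (0.0301).

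The labels do not say whether the PVN and CEA libraries of the same number came from the same rat. The study's methods state that brain samples were of a batch and not of an animal. The same methods name fewer rats than the series has mRNA libraries, so libraries of the 2 regions may share rats. The pattern of presence of LOC103690108 was alike in SEA 1 to 3 of both regions. SEA 2 was the highest SEA library in both regions for Usp18, Irf7, Mx2, Irf9, Isg15, Gbp2 and Oas1a. SEA 2 was not the highest for Psmb8 in the CEA, at 3.44, 2.87 and 3.47 CPM in CEA SEA. In contrast, Rpl35al1 was read in SEA 3 in the PVN and in SEA 1 in the CEA, at 155, 0 and 3 counts in CEA SEA. Fam111a was read in PVN EA 3 and SEA 3 and in CEA EA 2 and SEA 3, with 3, 217 and 5 counts in CEA EA and 3, 4 and 129 in CEA SEA. A second header line in the deposited table exchanges CEA EA 2 and EA 3, and by that line the CEA EA library with Fam111a would be EA 3, as in the PVN. Whether the 2 regions are independent repeats was not tested, and the interaction takes them as such.

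Genes higher in both regions included Wfdc1, Htra1 and Abcg2. Wfdc1 read 43.7, 38.4 and 42.9 CPM in CEA EA and 26.1, 24.5 and 31.1 CPM in CEA SEA (0.62, SE 0.12, unadjusted p = 0.00132), with no overlap, as in the PVN. Htra1, a secreted serine protease, read 142, 104 and 122 CPM in PVN EA and 77.4, 95.2 and 94.9 CPM in PVN SEA (0.46, SE 0.12, unadjusted p = 0.00318), and 0.65 (SE 0.15) in the CEA. Abcg2, an efflux transporter of the blood-brain barrier, read 24.2, 23.5 and 25.7 CPM in PVN EA and 12.9, 21.1 and 13.7 CPM in PVN SEA (0.62, SE 0.17, unadjusted p = 0.00494). In the CEA its log2 fold change was 0.68 (SE 0.13, unadjusted p = 0.000813). EA libraries were above SEA libraries in both regions for all 3 genes. Lower in both were Eml1, a microtubule protein, with -0.34 (PVN) and -0.48 (CEA), and Prkrip1, at -0.29 and -0.55. C1qb was higher in both (0.47 and 0.50), as was Mt2A (1.48 and 1.21).

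**Figure D5:**
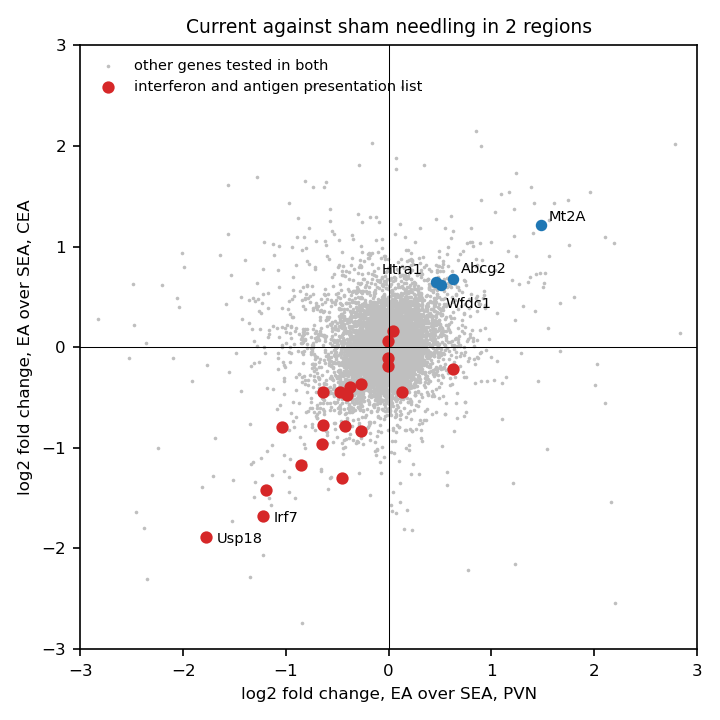
Log2 fold change of EA over SEA in the CEA against that in the PVN, 1 point per gene tested in both regions, with members of the interferon and antigen presentation list in red and 4 genes higher in both in blue. Most red points lie in the lower left, where 17 of 21 members are negative in both, and 8 genes lie outside the axes.

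The genes with the smallest interaction p had opposite signs in the regions. Epb41l1, a membrane skeleton protein, read 9.97, 9.62 and 10.1 CPM in PVN EA and 11.9, 21.2 and 54.3 CPM in PVN SEA, against 53.5, 49.8 and 22.3 CPM in CEA EA and 12.6, 17.5 and 10.8 CPM in CEA SEA. Its interaction was -3.18 (SE 0.67, unadjusted p = 0.000498). Cul7, a scaffold of a ubiquitin ligase, had -0.18 (PVN) and 0.36 (CEA) (interaction -0.54, unadjusted p = 0.000513). Hmgb3 had -0.35 and 1.08, Tfcp2l1 -0.54 and 0.61, Prex2 -0.06 and 0.70, and Echs1 -3.56 and 3.0. No adjusted interaction p of these genes was under 0.05.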

How the data were processed

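RNA of the PVN and CEA was sequenced from strand-specific libraries. The authors deposited whole-number read counts per gene without normalization. By the study's methods, reads were mapped with HISAT2 and counted with featureCounts. The methods name mRatBN7.2, but the largest gene end on chromosome 1, 282724300, is past that chromosome in mRatBN7.2 and fits Rnor_6.0, which was not checked against a genome. Coordinates are as in the table. It held 35032 genes, of which 2149 had no Ensembl identifier. A stray second header was left out. It exchanges CEA EA 2 and 3.

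Groups were taken from the sample titles. Each comparison used the counts of its own groups in edgeR 4.0.16 under R 4.3.3 (filterByExpr, TMM, two-sided quasi-likelihood test, Benjamini-Hochberg, threshold 0.05). The study used DESeq2 with an unadjusted p under 0.05. DESeq2 1.42.0, other size factors, no filter, each library left out, a replicate block and a fit of all 12 PVN libraries were the alternatives. CPM was scaled over the 12 libraries of a region, and a count of 0 allows 3 counts, for counting error only. The members, gene lists and named genes were chosen with earlier results of these data known. The rule for named genes took every gene with an adjusted p under 0.05 in edgeR (0 genes), the 10 higher and 10 lower genes of smallest p that had an Ensembl identifier and a gene symbol, a mean of at least 1 CPM and no overlap, the 2 smallest p in each list with Crh, Avp, Oxt, Trh and Sst, up to 6 genes of the same sign in both regions and up to 6 by interaction p, all-or-none genes (at most 3 counts in 1 library and at least 100 in another), 4 module genes of the study (Oprm1, Agtr2, Drd2 and Htr1a), and LOC103690108 and LOC100364500. Not every gene it named is printed, and genes outside it were chosen after their values were seen. Simulated counts for PVN EA against SEA, over 16606 genes with 200 changed 4-fold, gave 92% recovered in edgeR with 9 false calls and 91% in DESeq2 with 30. No smaller change was simulated, so the recovery of smaller differences is not known.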

Additional observations from a re-analysis of the deposited data

How the results depend on the processing

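The count of 0 genes at an adjusted p under 0.05 in the PVN held in edgeR with DESeq2 size factors, with no filter on low counts and with all 12 PVN libraries in 1 fit, and DESeq2 gave 24 genes. Leaving out each library in turn gave 0 to 13 genes (658 to 1068 at an unadjusted p under 0.05), with the most, 13, without SEA 3. The cause of these differences was not tested. EA 1 and SEA 3 left out together, chosen after seeing the data, gave 13. At an unadjusted p under 0.05 the fit of all 12 PVN libraries gave 536 genes, no filter 1210, and DESeq2, by the study's threshold, 609. In the CEA, DESeq2 gave 5 genes at an adjusted p under 0.05, and leaving out each library gave 0 to 1 (265 to 590 unadjusted, the most without CEA SEA 3). For the difference between regions DESeq2 gave 2, and leaving out each library gave 0 to 1 (288 to 690 unadjusted, with 671 without CEA EA 3 and 690 without CEA SEA 3).

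Nothing in the labels gives the replicate numbers as a pairing between groups. Same-numbered deviations from the group means correlated at -0.0015, 0.067 and 0.067 in the PVN and at 0.079, -0.36 and -0.21 in the CEA. These values do not settle whether the numbers pair libraries. With the replicate number as a block, 0 PVN genes had an adjusted p under 0.05 and 984 an unadjusted p under 0.05. In the CEA the block gave 0 and 201, and for the difference between regions 0 and 311.

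The interferon list had 5 to 10 genes at an unadjusted p under 0.05 in the PVN under every alternative run, all lower in EA. Of 1428 values of 119 named genes under the alternatives, 1365 kept their direction and side of the threshold, 23 passed an adjusted p of 0.05 and 40 changed sign. Leaving out each library gave these ranges of log2 fold change for genes that changed sign: Oxt (-0.032 to 0.21), Prex2 (-0.13 to 0.051), AABR07000382.1 (-1.60 to 0.27), Oprm1 (-0.39 to 0.035), Htr1a (-0.094 to 0.083), Hba-a3 (-2.56 to 0.12), Cga (-1.13 to 1.31), Stat2 (-0.089 to 0.0503), Irf1 (-0.11 to 0.11), B2m (-0.029 to 0.039), Avp (-0.17 to 0.089), Fuom (-1.09 to 3.48), Nr4a1 (-0.28 to 1.11), Cd74 (-0.18 to 0.33), LOC100364500 (-0.26 to 5.85), LOC103690108 (-0.018 to 9.80), Ifit3 (-1.08 to 0.27), Ifi27 (-0.61 to 0.15), Tapbp (-0.0197 to 0.084) and Drd2 (-0.21 to 0.0066). With EA 1 and SEA 3 left out together, the sign changed for Oxt (-0.12), Prex2 (0.038), AABR07000382.1 (0.036), Htr1a (0.19), Tap2 (-0.20), Stat2 (0.024). B2m changed sign with no filter (0.0019) and in the fit of all 12 libraries (0.00015). The depth of 14796811 to 18226679 counts limits genes near the floor of 3 counts.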

Other observations

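A further 5 genes had an unadjusted p under 0.05 and higher values in EA in both regions. They were chosen after their values were seen, they are not a list, and no adjusted p was under 0.05. Nqo1, a quinone reductase of the antioxidant response, read 35.8, 25.8 and 30.05 CPM in PVN EA and 22.9, 21.7 and 24.4 CPM in PVN SEA, with no overlap. Its log2 fold change was 0.41 (SE 0.12, unadjusted p = 0.00749), and 0.46 in the CEA (unadjusted p = 0.0206). Lrg1, a secreted leucine-rich glycoprotein, read 8.35, 3.41 and 4.23 CPM and 3.39, 2.86 and 2.896 CPM, so that the lowest EA library was barely above the highest SEA library. HT read 2.88, 4.65 and 6.903 CPM, across both groups, and NC 0.8599, 0.925 and 0.579 CPM, below all operated libraries. Its log2 fold change was 0.79 (unadjusted p = 0.0363), and 1.04 in the CEA (0.0182). Heph, a ferroxidase that helps iron leave cells, read 45.99, 32.2 and 45.4 CPM and 30.4, 36.5 and 27.3 CPM, with EA 2 among the SEA values (0.39, unadjusted p = 0.0284), and had 0.60 in the CEA (0.0116). Capg, an actin-capping protein, read 10.7, 8.85 and 7.51 CPM and 7.23, 6.53 and 4.47 CPM without overlap (0.57, unadjusted p = 0.0224), and had 0.60 in the CEA (0.0153). Tnfrsf11b, the decoy receptor osteoprotegerin, read 17.9, 24.1 and 24.7 CPM and 15.1, 19.2 and 9.32 CPM, with EA 1 below SEA 2 (0.61, unadjusted p = 0.0257), and had 0.76 in the CEA (0.0153). Without SEA 3 the unadjusted p was 0.0943 for Heph, 0.0658 for Capg, 0.0533 for Tnfrsf11b and 0.0780 for Lrg1, whose log2 fold change was 0.33 without EA 1 (0.184). Of the 5, Nqo1 alone stayed under 0.05 without any 1 PVN library.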
